A study of Homo sapiens with 8 samples.

Results

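Fibronectin and 8 genes of the transforming growth factor beta (TGF-beta) pathway were followed across 4 groups of BEAS-2B cells, an immortalized human line from the bronchial epithelium. The 9 genes form a list fixed by name, without a threshold on their values, although earlier results of these data were known when it was drawn up. They are FN1 and TGFBI, which encode matrix proteins, the ligand genes TGFB1, TGFB2 and TGFB3, the receptor genes TGFBR1 and TGFBR2, and SMAD3 and SMAD7. These were 9 of the 25411 genes listed in each library, and all 9 passed the filter on low counts in each of the 6 comparisons made. RNA-Seq gave 8 libraries, 2 per group. Untreated cells (UT) received no nickel. Nickel-exposed cells (Ni-E) were grown for 6 weeks in 100 µM NiCl2, which was still present at harvest. The washed-out cells (Ni-W) went through the same exposure and were then expanded without nickel, as a randomly picked population that descended from a single exposed cell, for more than 6 months. Ni-W is therefore 1 clone, and both of its libraries came from it. The group HCl3 carried the same treatment label as Ni-W, and no label said how long it had been without nickel or how it related to Ni-W. Total counts per library ranged from 26383920 to 45692298 reads. In the labels, Ni-E belongs to experiment 2 and HCl3 to experiments 3 and 4, while UT and Ni-W carry no such number, so that experiment and group cannot be told apart. The labels called the 2 libraries of a group duplicates without naming separate cultures. The study's methods state that the RNA came from 2 biological replicates, but do not mention HCl3 or separate exposures. The P values below therefore measure the spread between these samples only, and how much of it is technical is not known.

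Fibronectin is a large secreted glycoprotein that cells assemble into fibrils and bind through integrins. TGF-beta is secreted in a latent form that is tethered to the matrix. Once released, the ligand binds the type II receptor, which phosphorylates the type I receptor, and the type I receptor then phosphorylates Smad2 and Smad3, which move to the nucleus with Smad4 and change transcription. Among the genes that TGF-beta is known to raise are those of fibronectin, of the matrix protein TGFBI (TGF-beta-induced protein) and of Smad7, an inhibitor that acts back on the receptors. In airway epithelial cells the pathway is known for slowing growth and for driving the shift towards a mesenchymal state.

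The 9 genes lie on 9 different chromosomes. FN1 and TGFBI are the members with the largest differences described below, so the 250 bases upstream of the start of each are shown, as RefSeq gives them for GRCh38.p14, 5′ to 3′ on the strand of the gene. For FN1 these bases are chr2:215436069-215436318 (minus strand), and for TGFBI chr5:136028738-136028987 (plus strand). Capitals mark matches, on either strand, to the letters of the cAMP response element (TGACGTCA) and of the GC box (GGGCGG).
FN1: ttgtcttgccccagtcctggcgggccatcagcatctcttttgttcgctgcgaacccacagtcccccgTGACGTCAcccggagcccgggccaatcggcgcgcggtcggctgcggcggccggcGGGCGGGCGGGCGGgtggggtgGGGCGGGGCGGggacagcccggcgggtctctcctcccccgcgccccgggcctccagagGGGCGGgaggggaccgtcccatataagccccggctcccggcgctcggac
TGFBI: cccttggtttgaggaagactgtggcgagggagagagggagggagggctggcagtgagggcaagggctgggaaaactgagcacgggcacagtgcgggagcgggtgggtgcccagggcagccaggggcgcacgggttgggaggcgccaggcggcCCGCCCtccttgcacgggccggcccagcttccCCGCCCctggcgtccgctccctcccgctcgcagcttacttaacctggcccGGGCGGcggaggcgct
The upstream window of FN1 held 1 match to the cAMP response element, between 183 and 176 bases before the start, and 6 matches to the GC box, some of which overlap each other. That of TGFBI held 3 GC boxes and no cAMP response element. Across the 35116 RefSeq promoter windows of the same length, 1.65% held the cAMP response element and 42.6% the GC box. Neither window held the Smad palindrome (GTCTAGAC, in 0.182% of all windows) or the AP-1 letters (TGANTCA, in 6.57%), where N is any base. Among all members, each with at least 1 promoter window in RefSeq, FN1 was the only gene with a cAMP response element, and 1 of the 5 windows of SMAD3 was the only one with the AP-1 letters. The GC content of the window was 76.4% for FN1 and 72.8% for TGFBI, against a median of 58% over all windows. These matches describe the sequence and are not evidence that a factor was bound.

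The labelled cell type was checked with marker genes. Of 6 epithelial markers, 4 reached 1 RPKM (a read count per length of gene and per depth of library) in at least 1 library, with KRT8 between 192 and 310 RPKM and KRT18 between 144 and 245. CDH1, which encodes E-cadherin, reached at most 0.11 RPKM and KRT19 at most 0.78 in any library. Of 8 mesenchymal markers, 6 reached 1 RPKM, with VIM between 816 and 1527 RPKM, while DCN was at 0 in all libraries. Summed over the list, epithelial markers stood at 602 to 636 RPKM in UT, 579 to 794 in Ni-E, 947 to 972 in Ni-W and 935 to 996 in HCl3. The summed mesenchymal markers stood at 2061 to 2106 RPKM in UT, 1372 to 1386 in Ni-E, 1283 to 1488 in Ni-W and 2226 to 2264 in HCl3. No marker of endothelial cells (0 of 3) or of secretory, ciliated or alveolar airway cells (0 of 3) reached 1 RPKM in any library. Of 4 blood markers only CD14 did, at 1.06 to 4.15 RPKM, and the T cell marker CD3E was at 0. The epithelial sum was highest in the groups in which FN1 and TGFBI were high. It rested almost wholly on KRT7 (207 to 481 RPKM), KRT8 and KRT18. The mesenchymal sum was below UT in Ni-W and above UT in HCl3. The part of either sum in the levels of FN1 and TGFBI was not tested. In such bulk samples, fewer cells that express a gene and less RNA per cell cannot be told apart.

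The first question was where the matrix genes stood while nickel was present and after it had been removed. FN1, listed at chr2:216279384-216300791 of hg19 (minus strand, 6 RefSeq transcripts), was at 6.97 and 6.99 RPKM in UT and at 4.13 and 6.65 in Ni-E. In Ni-W it was at 82.1 and 82.8 RPKM, and in HCl3 at 117 and 121. Every washed-out library was thus far above every UT and Ni-E library, and no pair of groups overlapped. A gene was called different when its DESeq2 adjusted P value was under 0.05 and it changed by at least 1.5-fold. By this rule Ni-W exceeded UT 11.6-fold for FN1 (log2 fold change 3.54 ± 0.10 SE, adjusted P = 5.08e-290). In HCl3 the difference from UT was 16.5-fold (log2 4.04 ± 0.09 SE, Wald statistic 46.1), with a P value too small for the program to represent. Over 15 alternative analyses, which changed the test, the scaling, the filter, the fold threshold or the libraries used, the log2 fold change in Ni-W stayed between 3.31 and 3.67, and over 16 such analyses the value in HCl3 stayed between 3.86 and 4.07. FN1 was called in all of them.

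Against Ni-E, FN1 was 15.4-fold higher in Ni-W (log2 3.95 ± 0.31 SE, adjusted P = 5.23e-34) and 21.9-fold higher in HCl3 (log2 4.45 ± 0.32 SE, adjusted P = 5.39e-43). These larger standard errors go with the spread of the Ni-E libraries, which had a mean of 5.39 ± 1.78 RPKM (SD, n = 2) against 6.98 ± 0.014 in UT. Between Ni-E and UT the log2 difference of FN1 was -0.42 (95% interval -0.77 to -0.08, adjusted P = 0.105), which was not called. It was called lower, at -0.78, when Ni-E replicate 2 was left out, so that the value in Ni-E depended on 1 library. The span that the files list for FN1 was 21408 bases, shorter than the 75204 bases of the gene in the GRCh38 annotation, whereas the length implied by the ratio of its counts to its RPKM was 9465 bases. FN1 was counted with 1349 to 43886 reads per library.

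TGFBI encodes a secreted matrix protein that binds collagens and integrins and was the most abundant member per length in all groups. It is listed at chr5:135364584-135399507 of hg19 (plus strand). Its level was 94.3 and 96.0 RPKM for UT, 83.6 and 76.3 for Ni-E, 232 and 212 for Ni-W, and 500 and 513 for HCl3. The groups did not overlap. The order of the means from Ni-E through UT and Ni-W to HCl3 was the same as for FN1, and also as for TGFB1, TGFBR1 and SMAD3. TGFBI rose 2.28-fold in Ni-W against UT (log2 1.19 ± 0.10 SE, adjusted P = 1.78e-31) and 5.13-fold in HCl3 (log2 2.36 ± 0.08 SE, adjusted P = 9.16e-169). The log2 difference between Ni-E and UT was -0.31 ± 0.11 SE, with an adjusted P of 0.0462 and less than 1.5-fold, so it was not called. Against Ni-E, the gene was 2.78-fold higher in Ni-W and 6.27-fold higher in HCl3 (DESeq2 adjusted P = 1.94e-50 and 2.04e-234). In the comparisons of Ni-W and HCl3 with UT, all alternative analyses called TGFBI higher.

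**Figure D1:**
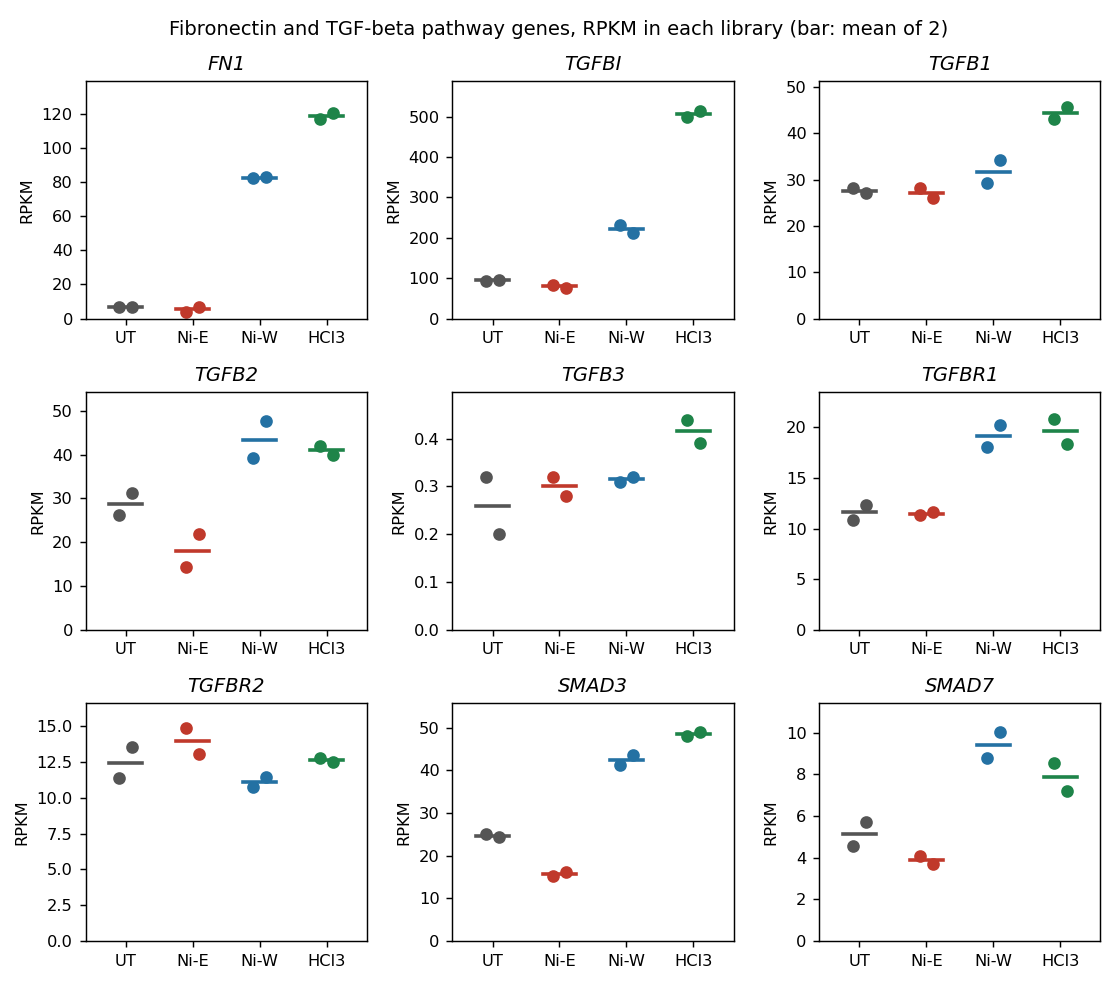
RPKM (linear axis from 0) of each of the 9 genes in the 8 libraries, by group on the horizontal axis, with a point per library and a bar at the mean of the 2. FN1 lies between 4.13 and 6.99 RPKM in UT and Ni-E and between 82.1 and 121 in Ni-W and HCl3, TGFBI is highest in HCl3, and TGFB3 reaches at most 0.44 RPKM.

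Relative to the other members, FN1 changed place. In UT, the mean RPKM of FN1 lay below those of TGFBI (95.1), TGFB2 (28.7), TGFB1 (27.6), SMAD3 (24.7), TGFBR2 (12.5) and TGFBR1 (11.6). In HCl3, only TGFBI (506 RPKM) had a higher mean than FN1 (119 RPKM), and the same held in Ni-W (222 and 82.4 RPKM).

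The ligand genes differed from each other. TGFB1, which encodes the best studied ligand (chr19:41836436-41859838 of hg19, minus strand), was at 28.1 and 27.2 RPKM for UT, 28.2 and 25.9 for Ni-E, 29.3 and 34.1 for Ni-W, and 43.0 and 45.6 for HCl3. The UT and Ni-E libraries overlapped, and the HCl3 libraries lay above all others. TGFB1 rose 1.54-fold in HCl3 against UT (log2 0.63 ± 0.10 SE, adjusted P = 5.99e-09). No call was made for Ni-W (log2 0.16, 95% interval -0.07 to 0.40, adjusted P = 0.331) or for Ni-E (log2 -0.09, 95% interval -0.32 to 0.15, adjusted P = 0.750). The call in HCl3 lay close to the fold threshold and was lost without HCl3 replicate 2 (log2 0.58). It was also lost when the median change of the genes in the same 10 Mb bin of the chromosome was subtracted (log2 0.58), and when trends with GC content and transcript length were removed from each library (log2 0.13).

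TGFB2 (chr1:218518676-218617961 of hg19, plus strand), a ligand made by many epithelial and mesenchymal cells, was at 26.1 and 31.3 RPKM for UT, 14.4 and 21.8 for Ni-E, 39.2 and 47.7 for Ni-W, and 42.1 and 39.8 for HCl3. Both Ni-E libraries lay below both UT libraries, and the Ni-W and HCl3 libraries lay above them and overlapped each other. TGFB2 fell in Ni-E against UT, by 0.72 on the log2 scale (± 0.16 SE, 1.65-fold, adjusted P = 0.000320). This call was lost in 8 of 16 alternative analyses: with limma on RPKM values at either pseudocount, when UT replicate 1, UT replicate 2 or Ni-E replicate 1 was left out (log2 -0.85, -0.59 and -0.47), with the replicates paired crosswise, with GC and length trends removed (log2 -0.57), and at a 2-fold threshold. In Ni-W and HCl3 the differences from UT were 0.56 and 0.46 on the log2 scale (adjusted P = 0.000109 and 0.000162), both under 1.5-fold. Each passed the fold threshold without UT replicate 2 (log2 0.69 and 0.59). That in Ni-W also passed it without Ni-W replicate 1 (log2 0.71) and with limma on log2(RPKM + 0.1) (log2 0.59). The lowest values over the alternatives were 0.35 in Ni-W and 0.33 in HCl3. Against Ni-E, TGFB2 was 2.41-fold higher in Ni-W and 2.25-fold higher in HCl3 (adjusted P = 0.000185 and 0.000109). The first of these calls was lost without Ni-W replicate 2 (log2 1.12), and the second without either HCl3 library (log2 1.14 and 1.21). TGFB2 overlaps an antisense gene, TGFB2-AS1, and whether the counting used the strand of a read was not stated. TGFB2-AS1 was assigned 2 to 9 reads per library and TGFB2 3282 to 11883.

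TGFB3, the remaining ligand gene (chr14:76424442-76448092 of hg19, minus strand), was the least abundant member, with 19 to 58 reads per library and 0.20 to 0.44 RPKM. It was not called in any of the 6 comparisons. At this depth the 95% interval of its log2 fold change ran from -0.86 to 1.29 in Ni-W and from -0.37 to 1.59 in HCl3 against UT. The interval in Ni-W holds a 1.5-fold change in either direction. In HCl3 the estimate was itself a 1.53-fold rise (log2 0.61 ± 0.50 SE, DESeq2 adjusted P = 0.392), which was not called.

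The receptor genes also parted. TGFBR1, which encodes the type I receptor (chr9:101867412-101916473 of hg19, plus strand), was at 10.8 and 12.4 RPKM for UT, 11.3 and 11.6 for Ni-E, 18.02 and 20.3 for Ni-W, and 20.9 and 18.4 for HCl3. The UT and Ni-E libraries overlapped, as did the Ni-W and HCl3 libraries, and the latter 4 lay above the former 4. TGFBR1 rose 1.61-fold in Ni-W (log2 0.69 ± 0.12 SE, adjusted P = 1.50e-07) and 1.63-fold in HCl3 against UT (log2 0.70 ± 0.11 SE, adjusted P = 5.40e-09). In Ni-E the log2 difference was -0.08 (95% interval -0.32 to 0.16). The genes around TGFBR1 were also higher, with a median log2 fold change of 0.25 over the 39 expressed genes of its 10 Mb bin in both comparisons. With that median subtracted, the values became 0.44 and 0.46 and neither was called. The Ni-W call was also lost when GC and length trends were removed (log2 0.52).

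TGFBR2, which encodes the type II receptor that binds the ligand first (chr3:30647994-30735633 of hg19, plus strand), was at 11.4 and 13.5 RPKM for UT, 14.9 and 13.1 for Ni-E, 10.7 and 11.4 for Ni-W, and 12.8 and 12.5 for HCl3. UT overlapped with each of the other groups. Its log2 fold change against UT was -0.20 in Ni-W (95% interval -0.45 to 0.05) and -0.03 in HCl3 (95% interval -0.26 to 0.20), intervals that leave out a 1.5-fold change. The difference that came nearest to a call was that of Ni-W from Ni-E (log2 -0.33 ± 0.12 SE, adjusted P = 0.0152), which was under 1.5-fold. It was called at log2 -0.61 when GC and length trends were removed.

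SMAD3, the gene of the Smad protein that carries much of the transcriptional response, was lower than UT in Ni-E and higher in Ni-W and HCl3. It is listed at chr15:67458493-67487533 of hg19 (plus strand). This span of 29041 bases is shorter than the 129568 bases of the gene in the GRCh38 annotation. The level of SMAD3 was 25.0 and 24.4 RPKM for UT, 15.3 and 16.1 for Ni-E, 41.3 and 43.5 for Ni-W, and 48.1 and 49.0 for HCl3, with no overlap between groups. SMAD3 fell in Ni-E by 0.71 on the log2 scale (± 0.11 SE, 1.63-fold, adjusted P = 1.11e-08), and of the 16 alternative analyses only the 2-fold threshold ended this call. It rose 1.68-fold in Ni-W against UT (log2 0.75 ± 0.10 SE, adjusted P = 2.42e-12) and 1.89-fold in HCl3 (log2 0.92 ± 0.09 SE, adjusted P = 2.98e-23). Against Ni-E it was 2.71-fold higher in Ni-W and 3.05-fold higher in HCl3 (adjusted P = 4.52e-53 and 4.19e-93). Over the 58 expressed genes of its 10 Mb bin, the median log2 fold change against UT was 0.34 for Ni-W and 0.25 for HCl3. With the bin median subtracted, SMAD3 was no longer called in Ni-W (log2 0.41), nor was it with GC and length trends removed (log2 0.46), whereas the call in HCl3 was kept under both (lowest value over the alternatives log2 0.60).

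SMAD7, which encodes the inhibitory Smad (chr18:46446223-46477081 of hg19, minus strand), was at 4.57 and 5.71 RPKM for UT, 4.10 and 3.68 for Ni-E, 8.79 and 10.1 for Ni-W, and 8.53 and 7.19 for HCl3. The groups did not overlap, and Ni-W was the highest. SMAD7 rose 1.74-fold in Ni-W against UT (log2 0.80 ± 0.16 SE, adjusted P = 4.06e-06), a call that was lost with GC and length trends removed (log2 0.52). In HCl3 the log2 difference from UT was 0.54 ± 0.15 SE (adjusted P = 0.00237), under 1.5-fold. That value was 0.17 with GC and length trends removed (adjusted P = 0.369). It passed the threshold at 0.67 without UT replicate 2 and at 0.61 with limma on log2(RPKM + 0.1). It also passed, at 0.71, when the median of the 10 Mb bin of SMAD7, -0.17, was subtracted. Against Ni-E, SMAD7 was 2.35-fold higher in Ni-W and 1.97-fold higher in HCl3 (adjusted P = 7.26e-15 and 1.03e-09). In Ni-E it differed from UT by -0.45 on the log2 scale (95% interval -0.81 to -0.09, adjusted P = 0.0935), and was called lower with GC and length trends removed (log2 -0.60).

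**Figure D2:**
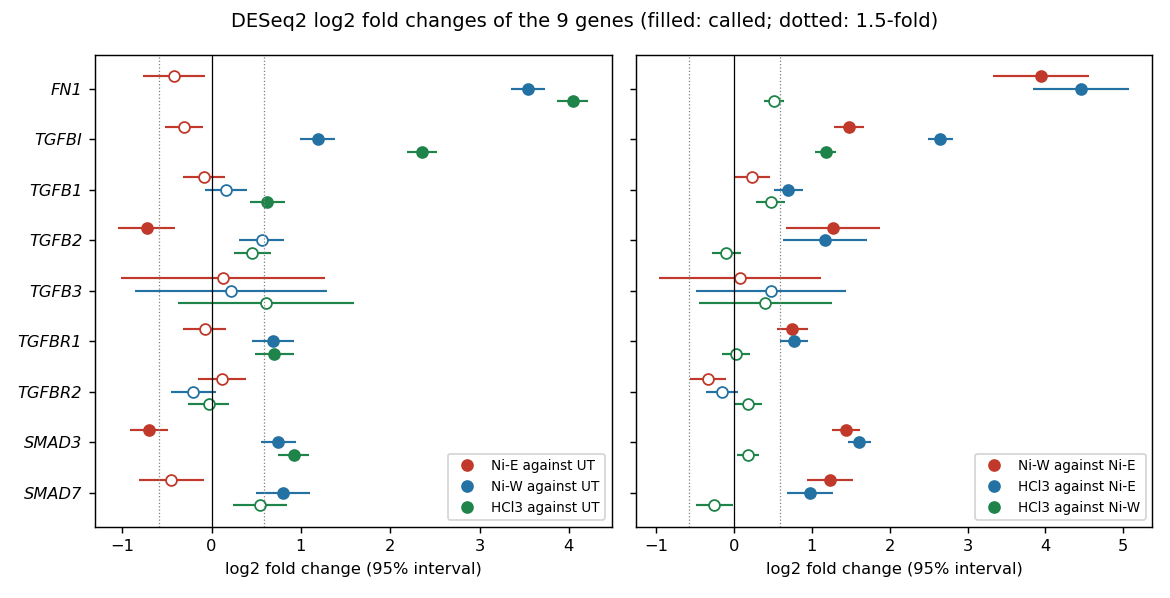
DESeq2 log2 fold changes of the 9 genes (horizontal axis, bars are 95% intervals), for the comparisons with UT on the left and the other 3 on the right, with filled points for calls and dotted lines at 1.5-fold. FN1 stands at 3.54 and 4.04 in Ni-W and HCl3 against UT, and the intervals of TGFBR2 cross 0 in all comparisons with UT.

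The members were then counted by comparison. In Ni-E against UT, 0 of 9 were called higher and 2 lower (TGFB2 and SMAD3), beside 3.75% of 14478 genes called higher and 2.05% called lower. The median log2 fold change of the members was -0.31, against -0.0016 over all genes tested. In Ni-W against UT, 5 were higher (FN1, TGFBI, TGFBR1, SMAD3 and SMAD7) and 0 lower, beside 10.9% and 4.83% of 15826 genes, and their median was 0.69 against 0.01. In HCl3 against UT, 5 were higher (FN1, TGFBI, TGFB1, TGFBR1 and SMAD3) and 0 lower, beside 11.1% and 3.74% of 15766 genes, with a median of 0.63 against 0.01. These 3 comparisons share the UT libraries. The count in Ni-W went from 5 to 3 with the bin medians subtracted and to 2 (FN1 and TGFBI) with GC and length trends removed.

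Counted against Ni-E, 6 of 9 members were higher in Ni-W and 0 lower, beside 11.7% and 8.81% of 15989 genes. The median of the members was 1.23 on the log2 scale, and that of all genes tested 0.02. In HCl3, 7 were higher and 0 lower, beside 10.4% and 6.78% of 15953 genes, with a median of 0.98 for the members and 0.01 for all genes tested. TGFB3 and TGFBR2 were in neither count. SMAD3 and TGFB2, both lower in Ni-E than in UT, were in both. TGFB1 was 1.62-fold higher in HCl3 than in Ni-E (log2 0.70 ± 0.09 SE, adjusted P = 4.34e-12), a call lost with GC and length trends removed (log2 0.50). TGFBR1 was 1.68-fold higher in Ni-W and 1.70-fold higher in HCl3 than in Ni-E (adjusted P = 9.91e-12 and 4.53e-15). Both of these calls were lost with the bin medians subtracted (log2 0.48 and 0.58) and with GC and length trends removed (log2 0.41 and 0.56).

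**Figure D3:**
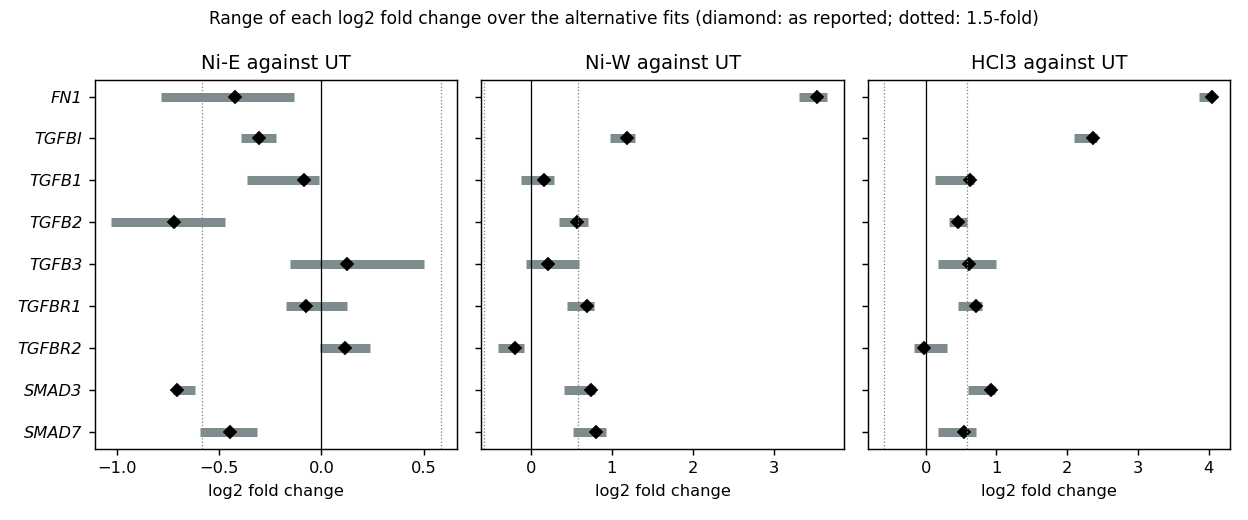
Reported log2 fold change against UT of each gene (diamonds) and its range over the alternative analyses (grey bars), by comparison, with dotted lines at 1.5-fold. The ranges of FN1 and TGFBI in Ni-W and HCl3 lie wholly beyond 1.5-fold, while those of TGFBR1, SMAD3 and SMAD7 in Ni-W cross it.

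The 2 washed-out groups were compared directly. TGFBI was 2.26-fold higher in HCl3 than in Ni-W (log2 1.18 ± 0.07 SE, adjusted P = 4.91e-60). It was the only 1 of the 9 members called higher, with 0 lower, beside 3.1% and 1.66% of 14956 genes. FN1 was 1.42-fold higher in HCl3 (log2 0.51 ± 0.07 SE, adjusted P = 9.47e-13) and TGFB1 1.38-fold higher (log2 0.47 ± 0.09 SE, adjusted P = 1.89e-05), both under the fold threshold. The value of FN1 ranged from 0.18 to 0.59 over the alternatives, and that of TGFB1 from 0.25 to 0.59. For FN1 the lowest value came with the bin median subtracted (adjusted P = 0.0576) and the highest, which passed 1.5-fold, with GC and length trends removed. For TGFB1 the lowest came with GC and length trends removed (adjusted P = 0.0332). Its highest, which also passed 1.5-fold, came without Ni-W replicate 2, and its adjusted P was 0.094 without HCl3 replicate 2 (log2 0.42). The log2 difference of SMAD3 was 0.18 (95% interval 0.04 to 0.32, adjusted P = 0.0734) and that of SMAD7 -0.25 (95% interval -0.49 to -0.01, adjusted P = 0.156). For TGFBR1 it was 0.02 (95% interval -0.16 to 0.20), and for TGFB2 -0.10 (95% interval -0.28 to 0.08).

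Other genes of the pathway were read from 4 lists, given here by counts against UT and by their median log2 fold change, beside medians of -0.0016, 0.01 and 0.01 over all genes tested (Ni-E, Ni-W and HCl3 in that order). The shares of all genes called in each comparison are those given above. Most genes described singly below were picked by their values. They had the largest rises or falls called in Ni-W against UT within their list, above a minimum mean count. Their values in that comparison are therefore selected extremes and do not stand for the list. The first list held 16 genes that keep TGF-beta latent or release it, of which 14 could be tested. In Ni-E, 1 was higher (LTBP1) and 1 lower (THBS1), with a median of 0.22. In Ni-W, 6 were higher and 1 lower, with a median of 0.63, and in HCl3, 10 were higher and 0 lower, with a median of 0.93. The count of 6 in Ni-W fell to 3 when Ni-W replicate 2 was left out and to 2 with limma on log2(RPKM + 1). BGN, the gene of the matrix proteoglycan biglycan, went from a mean of 0.32 RPKM in UT and 0.615 in Ni-E to 2.71 in Ni-W and 2.57 in HCl3 (log2 3.02 ± 0.33 SE and 2.92 ± 0.33 SE against UT). LTBP2, a member of the latent TGF-beta binding protein family, was at 0.17 RPKM for UT, against 0.505 for Ni-W and 0.945 for HCl3. LTBP4, of the same family, was lower in Ni-W at 5.58 RPKM than in UT at 8.24 (log2 -0.61 ± 0.15 SE, adjusted P = 0.000370). This call was lost without UT replicate 1 or Ni-W replicate 2 and with limma at either pseudocount. The same held with the bin median subtracted and at a 2-fold threshold. LTBP4 was at 8.03 RPKM in HCl3.

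The second list held 22 co-receptors, Smads and regulators, all tested. It was the list with the fewest calls in Ni-W and HCl3. In Ni-E, 1 was higher and 0 lower, and in Ni-W and HCl3, 3 were higher and 0 lower, with medians of -0.04, 0.03 and -0.01. PMEPA1, a target gene of TGF-beta whose protein restrains Smad signalling, was at a mean of 0.215 RPKM for UT, 0.30 for Ni-E, 1.70 for Ni-W and 2.30 for HCl3 (log2 2.96 ± 0.30 SE and 3.37 ± 0.27 SE against UT, adjusted P = 6.48e-21 and 2.53e-33). SKIL, which encodes the Smad corepressor SnoN, was at 6.34 RPKM for UT, 5.40 for Ni-E, 12.1 for Ni-W and 9.74 for HCl3, and was called in Ni-W only (log2 0.91 ± 0.13 SE) of the comparisons with UT. LDLRAD4, a regulator that acts on Smad activation, was called in Ni-E, Ni-W and HCl3. It had 2 and 0 reads in UT and 26 to 59 in the other libraries, and its call in Ni-E was not made with limma or without Ni-E replicate 2. ENG, the co-receptor endoglin, was called in HCl3 (log2 0.62 ± 0.09 SE). LDLRAD4, ENG and the list genes given for Ni-E were named by choice after their values had been seen. PMEPA1 and SKIL were named for their rank in Ni-W against UT.

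The third list held 32 genes that TGF-beta is known to raise. Of 30 tested in Ni-E, 4 were higher (ACTA2, VCAN, CDKN1A and JUNB) and 5 lower (TAGLN, TPM1, COL1A2, CDKN2B and IGFBP3), with a median of -0.09. Over the alternative analyses at the same fold threshold, these counts ran from 2 to 4 and from 2 to 7. In Ni-W, 11 of 31 were higher and 3 lower (COL1A1, POSTN and CDKN2B), with a median of 0.47. In HCl3, 19 of 32 were higher and 1 lower (CDKN2B), with a median of 0.90. The collagen gene COL5A1 was at 2.23 RPKM for UT, 3.09 for Ni-E, 18.3 for Ni-W and 29.4 for HCl3 (log2 3.01 ± 0.13 SE and 3.67 ± 0.11 SE against UT), and SNAI2, the gene of a repressor of epithelial genes, was at 0.29, 0.59, 1.34 and 1.40 RPKM in the same order. CDKN2B, which encodes a cell cycle inhibitor and is a classical target of TGF-beta, fell in all 3 comparisons with UT (log2 -0.91 in Ni-E, -1.71 for Ni-W and -1.12 for HCl3). COL1A1, the gene of the main chain of type I collagen, was lower in Ni-W at 232 RPKM than in UT at 364 (log2 -0.69 ± 0.11 SE, adjusted P = 9.66e-09) and was at 443 RPKM in HCl3. The count of 3 lower genes in Ni-W became 1 without UT replicate 1.

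The last list held 24 fibronectin receptors, assembly factors and partners, of which 23 were tested. In Ni-E, 4 were higher (ITGA4, ITGB3, ITGB5 and TGM2) and 2 lower (SDC2 and TNS1). The count of 4 became 2 or 1 in each of the 4 analyses that left out a library of UT or Ni-E, and 2 with the replicate block. In Ni-W, 10 were higher and 0 lower (median 0.35), and in HCl3, 13 were higher and 0 lower (median 0.61), of which 7 were called with GC and length trends removed. ITGA4, the integrin alpha 4 chain that binds an alternatively spliced segment of fibronectin, went from a mean of 0.055 RPKM in UT and 0.20 in Ni-E to 6.86 in Ni-W and 4.44 in HCl3 (log2 6.98 ± 0.33 SE and 6.34 ± 0.34 SE against UT). TGM2, a transglutaminase that crosslinks fibronectin, was at 0.34 RPKM for UT, 0.78 for Ni-E, 4.48 for Ni-W and 6.38 for HCl3. The chains of the main fibronectin receptor, ITGA5 and ITGB1, were not called in these comparisons. Their log2 fold changes were 0.27 ± 0.10 SE and 0.06 ± 0.10 SE in Ni-W and 0.44 ± 0.09 SE and 0.03 ± 0.09 SE in HCl3. ITGA5 and ITGB1 were also named by choice after their values had been seen, and ITGA4 and TGM2 for their rank in Ni-W against UT.

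**Figure D4:**
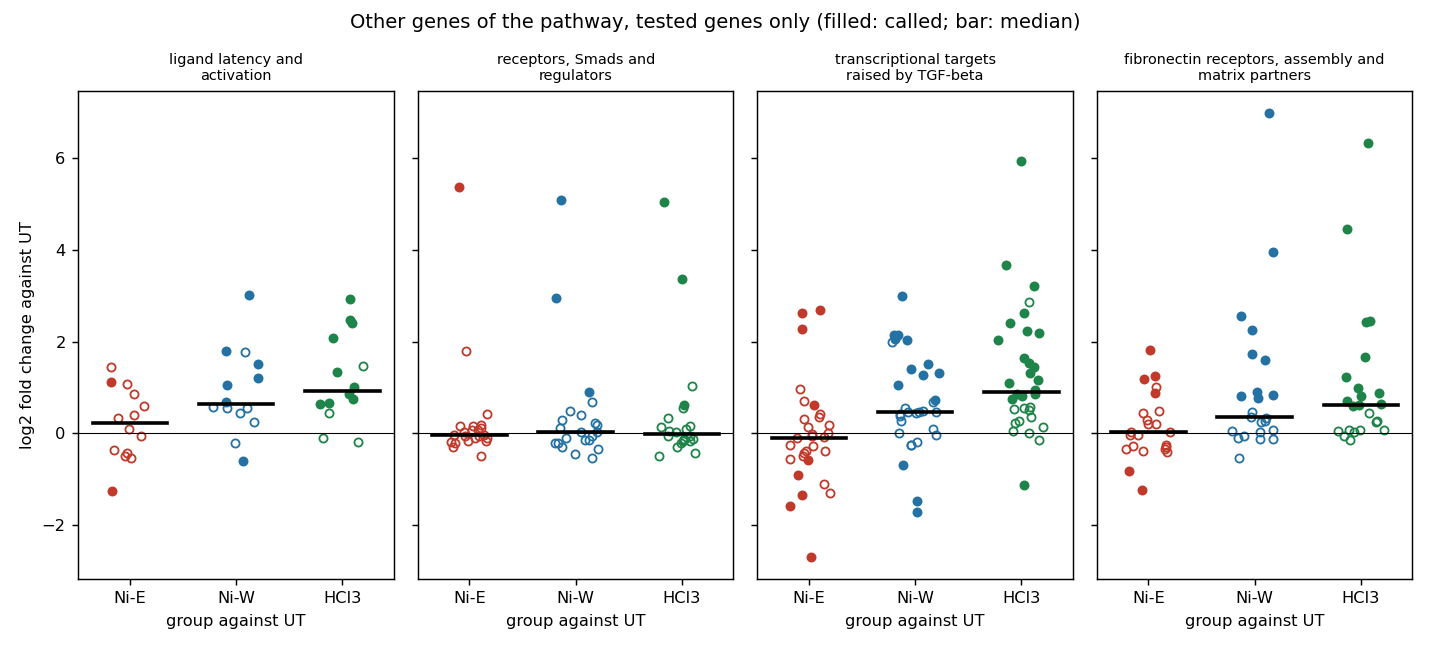
Log2 fold change against UT (vertical axis) of the tested genes of the 4 lists in Ni-E, Ni-W and HCl3, with a point per gene, filled where called, and a bar at the median. In Ni-W and HCl3 the median of receptors, Smads and regulators lies at 0.03 and -0.01, and those of the other lists lie between 0.35 and 0.93.

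The genes most like FN1 were taken as those with the smallest root mean square difference from it over the 8 libraries, in log2(normalized count + 1) relative to the UT mean of each gene, among 12015 genes. They were THNSL2 (0.31), SLC2A10 (0.44), HTRA3 (0.51), TFPI2 (0.51) and COL5A1 (0.52). All except COL5A1 were expressed at far lower levels than FN1, with means of 0.095 to 0.355 RPKM in UT and of 1.62 to 4.26 RPKM in HCl3. This is a description over 8 libraries that share their groups and depth.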

How the data were processed

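RNA-Seq was carried out on 8 libraries of BEAS-2B cells in 4 groups of 2, taken from the sample labels. The authors aligned the reads to hg19 with STAR (version 2.4 per the labels) and deposited 1 table per library with counts of uniquely aligned reads per RefSeq gene. RPKM values, likewise made by the authors, stand beside the counts. Whether counting used the strand was not stated, and a value covers the exons of all listed transcripts of a gene. Columns of other samples numbered 0.

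Counts were tested as deposited with DESeq2 1.42.0 in R 4.3.3, with median-of-ratios size factors, a two-sided Wald test, independent filtering and Benjamini-Hochberg adjustment over all genes tested. Each fit held the 4 libraries of a pair of groups. Thresholds (adjusted P under 0.05, at least 1.5-fold) follow the study's methods. With 2 libraries per group, no permutation of the samples can reach a P value under 0.05, and the tests rest on a spread shared across genes. RPKM served for levels only, with SD over 2 libraries, and normalized counts for likeness to FN1.

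The members and lists were chosen with earlier results of these data known. All members are described, and from each list, genes that Ni-W against UT called are named if their mean normalized count reached 50, up to 2 with the highest and 2 with the lowest log2 fold change. The same minimum applied to the 10 Mb bins. GC content, from the longest transcript of the same symbol, was known for 98.8% of 13856 expressed genes (mean count of at least 10), and length came from the ratio of counts to RPKM. Alternatives were the edgeR 4.0.16 quasi-likelihood test, TMM size factors, 1 fit of all 8 libraries, a minimum mean count of 10, limma 3.58.1 on log2(RPKM + 1) or log2(RPKM + 0.1) for genes with a mean of at least 0.1 RPKM, the replicate number as a block, each library left out, bin medians subtracted, GC and length trends removed, a 2-fold threshold and no fold threshold. A crossed replicate block was added after the data were seen. Promoter windows came from RefSeq on GRCh38.p14. The DESeq2 and edgeR fits were also run on simulated counts, with the same spread assumed for all genes, and the other alternatives were not. Plots used matplotlib 3.10.9 (Python 3.11.15). Chromatin data and other cells of the study were not analysed here.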

Additional observations from a re-analysis of the deposited data

Results flagged for a closer look

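HCl3 and Ni-W, 2 groups that carry the same treatment label, were tested directly. For 3 of the 9 genes the adjusted P was under 0.05, without regard to fold. The share of all genes that pass this looser rule is not given here. With the 1.5-fold threshold, 1 of the 9 was called, beside 3.1% of 14956 genes called higher and 1.66% called lower. In log2 units, HCl3 was higher than Ni-W by 1.18 for TGFBI, by 0.51 for FN1 and by 0.47 for TGFB1. All libraries of HCl3 lay above all libraries of Ni-W for each. The same held for TGFB3, TGFBR2 and SMAD3, whose adjusted P was not under 0.05, so this separation does not set the flagged genes apart. The share of all genes separated in this way is not given here. Only the value of TGFBI passed the 1.5-fold threshold, and the adjusted P values of FN1 and TGFB1 were 9.47e-13 and 1.89e-05 (DESeq2). With the median of its 10 Mb bin subtracted, the value of FN1 was 0.18 (adjusted P = 0.0576), and with GC and length trends removed that of TGFB1 was 0.25 (adjusted P = 0.0332). The median log2 difference of the 34 expressed genes in the 10 Mb bin of FN1 was 0.33, that of the 79 genes in the bin of TGFBI was 0.03, and that of the 186 genes in the bin of TGFB1 was 0.10. Whether the 2 groups come from different clones or experiments was not tested.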

How the results depend on the processing

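Of 828 values of the 9 genes under alternatives, 773 stayed on their side of the threshold, 36 lost the call and 19 gained it. Of the 773, 753 kept their sign, and the 20 that changed it were of differences not called. The 828 include the 2-fold threshold and no fold threshold, which reuse the reported log2 values, so that their sign could not change. The number of genes called changed as follows. In Ni-E against UT it was 2, and became 1 with limma at either pseudocount or with the crossed block, 0 at a 2-fold threshold, and 1 to 3 with a library left out. In Ni-W against UT it was 5, and became 3 with bin medians subtracted, 2 with GC and length trends removed, 2 at a 2-fold threshold, and 5 to 6 with a library left out. In HCl3 against UT it was 5, and became 2 at 2-fold and 4 to 7 with a library left out. TGFB1 was lost there with GC and length trends removed. With bin medians subtracted, TGFB1 and TGFBR1 were lost and SMAD7 was gained. In Ni-W against Ni-E it was 6, and 5 to 6 with a library left out. With GC and length trends removed, TGFBR1 was lost there and TGFBR2 was gained as lower. In HCl3 against Ni-E it was 7, and became 4 at 2-fold and 6 to 7 with a library left out. TGFB1 and TGFBR1 were lost there with GC and length trends removed. In HCl3 against Ni-W it was 1, and became 2 with GC and length trends removed, 3 with no fold threshold, and 1 to 2 with a library left out. Where a library was left out, the lone sample of its group was assumed to vary like the other group, and the fits had fewer samples; why other settings changed a call was not tested.

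The labels mark the repeat library of each group, and their experiment numbers (2 for Ni-E, 3 and 4 for HCl3) do not recur across groups, so that same-numbered replicates share only a number. Deviations of same-numbered libraries had an r across 13856 genes of -0.10 in Ni-E against UT, 0.21 in Ni-W against UT and -0.14 in HCl3 against UT, and of -0.10 in Ni-W against Ni-E, 0.0083 in HCl3 against Ni-E and -0.05 in HCl3 against Ni-W. With the replicate block the counts of called genes were 2, 5, 5, 6, 7 and 1 in the order used above, and no call of the 9 genes changed. With the crossed block they were 1 in Ni-E against UT and 5 in HCl3 against UT.

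Depth limits TGFB3, with 19 to 58 reads per library, and 2 libraries per group limit all values. Wash-out is represented in Ni-W by 1 clone.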
